A study of Homo sapiens with 12 samples.

Results

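The genes described are those along the long arm of human chromosome 8 in MDA-MB-231 cells, an established triple-negative breast cancer cell line, after depletion of either of 2 chromatin enzymes. Of 266 genes of the long arm that the arrays measured through a probe set with a single gene symbol, 181 had a mean log2 value over the 12 arrays above 5.98 and were kept, out of 11963 genes in all. That limit is the 40th percentile of all non-control probe sets, and 85 genes of the arm lay at or below it. The 181 members span 97.79 Mb from the start of the first, SPIDR, to the start of the last, C8orf33, and the widest gap between neighbours was 5.83 Mb. The members were chosen by position and mean level, and the arm itself was chosen by the measured differences between shRNA and scramble arrays. Those differences are therefore given as a description, and the p-values of single genes lend no support to the pattern along the arm.

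The cells carried lentiviral particles with a short hairpin RNA (shRNA) against HDAC5, a class IIa histone deacetylase, an shRNA against LSD1, a histone lysine demethylase whose gene is KDM1A, or a scramble shRNA. There were 4 groups of 3 arrays, with no other treatment named: HDAC5 shRNA, LSD1 shRNA, a scramble set tagged for LSD1, and a scramble set without a tag, which was taken as that of the HDAC5 experiment. The labels call the arrays of a group biological replicates without saying what separates them, so p-values measure only the spread between these samples. All groups are 1 cell line, and the sources used here do not say whether 1 shRNA sequence or a pool served each target.

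Genes that lie next to each other on a chromosome share its copies and, in part, its chromatin, so neighbours without a common function can move together. The long arm of chromosome 8 is gained in many breast cancers and carries MYC, a transcription factor gene that drives growth. RNA alone was measured here, from the cells of a culture together, so a change in the share of cells that express a gene and a change in RNA per cell cannot be told apart.

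As a check of the labels, HDAC5 went from 7.40 ± 0.17 to 6.29 ± 0.18 (log2, SD, n = 3 each) with its own shRNA, and KDM1A from 9.72 ± 0.09 to 6.63 ± 0.17 with LSD1 shRNA. The arrays of both experiments had KRT18, VIM and CD44 high (lowest of 12 arrays 12.15, 13.47 and 11.63), and PGR and the leukocyte gene PTPRC near background (highest 3.02 and 3.62). ESR1 reached at most 6.49. Array medians were 6.59 to 6.65 in the HDAC5 experiment and 7.05 to 7.15 in the LSD1 experiment, so each shRNA was set against its own scramble arrays. Arrays of a group correlated at 0.9907 or higher over all probe sets.

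With LSD1 shRNA, 1 continuous stretch of the arm was higher than in the scramble arrays by the rule given here, and with HDAC5 shRNA there was none. To place it, each member's difference (mean of 3 shRNA arrays minus mean of 3 scramble arrays, log2) was centred on the median over the 7996 genes above the same level limit, and a running median over 15 neighbouring members was taken. A raised stretch was a run of at least 10 members with a running median of at least 0.2, and a lowered stretch the same at -0.2. The raised stretch with LSD1 shRNA ran from MRPS28, the 47th member from the centromere, to ATAD2, the 122nd, and held 76 members over 43.4 Mb. Their median difference was 0.37, which is 1.29-fold, and 65 of the 76 lay above 0.

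The running median stayed between 0.20 and 0.53 along the stretch, with its peak at E2F5. Before the start, the 46 members on the centromere side had a median of -0.15, and beyond the end the 59 on the telomere side had a median of 0.12. On the telomere side the running median was 0.22 to 0.27 from HHLA1 to DENND3, the 135th to the 143rd member. That run was shorter than the 10 members required. A raised run that took in these members met the rule when LSD1 shRNA array 1 or 3 was left out. The 106 genes of the short arm above the limit had a median of -0.09. Within the 46 of the centromere side, 11 neighbours from ASPH to ARFGEF1, over 5.67 Mb, met the rule for a lowered stretch, with a median of -0.21. With HDAC5 shRNA the running median ranged from -0.33, at KCNQ3, to 0.21, at MRPS28, and the same 76 members had a median of -0.003.

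**Figure D1:**
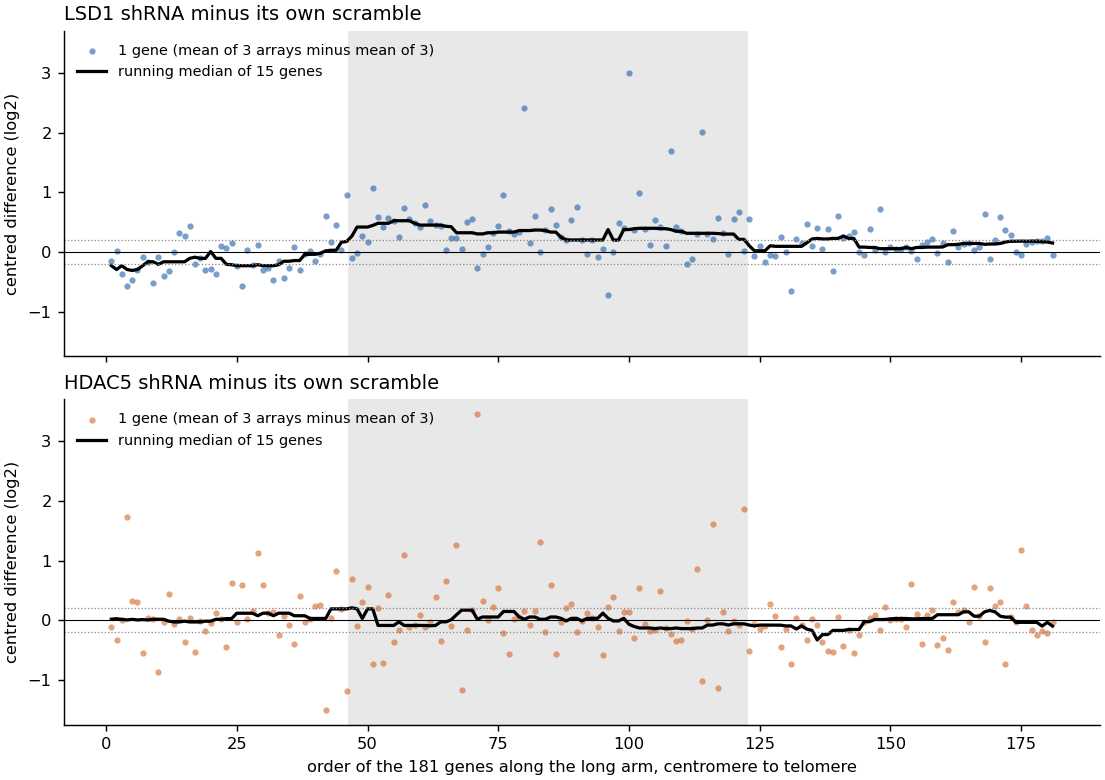
Centred difference from the own scramble arrays (log2, y axis) of each of the 181 members by their order along the arm (x axis), for LSD1 shRNA above and HDAC5 shRNA below. Each point is 1 gene, the black line is the running median of 15 genes, dotted lines mark 0.2 and -0.2, and grey shading marks the 76 members of the raised stretch, where the black line lies at 0.20 to 0.53 with LSD1 shRNA and at -0.14 to 0.21 with HDAC5 shRNA.

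Each array showed the same division. Each shRNA array was set against the mean of its 3 scramble arrays, and each scramble array against the mean of the other 2. Every difference was centred on its median over the genes above the level limit. The 76 members then had a median of 0.37, 0.35 and 0.32 on LSD1 shRNA arrays 1, 2 and 3. On the scramble arrays of that experiment (A, B, C) the medians were -0.02, 0.02 and 0.02. The scramble medians are deviations within their own set and so lie around 0. The 3 LSD1 shRNA arrays had 0.35 ± 0.03 (SD, n = 3) against 0.01 ± 0.02. The stretch was placed by the mean of these same arrays, so a median above 0 over it was set by that choice. What the values add is that the 3 LSD1 shRNA arrays were alike. They share 1 scramble mean, whose spread the SD leaves out. A comparison of 3 arrays with 3 cannot reach a two-sided exact permutation p under 0.1, and none was computed for these medians.

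On the centromere side the LSD1 shRNA arrays had medians of -0.11, -0.10 and -0.15, below the scramble arrays at -0.06, -0.02 and 0.06. On the telomere side they had 0.11, 0.11 and 0.15, above the scramble arrays, which reached at most 0.025. In the HDAC5 experiment the raised stretch had medians of -0.01, 0.02 and 0.001 on the shRNA arrays and of -0.01, -0.03 and 0.05 on the scramble arrays, which overlap. As a measure of RNA integrity, the 3′ probe set of ACTB exceeded its 5′ probe set by 1.34 to 1.56 on the LSD1 shRNA arrays and by 1.26 to 1.37 on their scramble arrays (log2), which overlap. In the HDAC5 experiment, which had no stretch, the ranges were 0.59 to 0.73 and 0.83 to 0.95, which do not. The part of RNA integrity in the stretch was not tested.

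**Figure D2:**
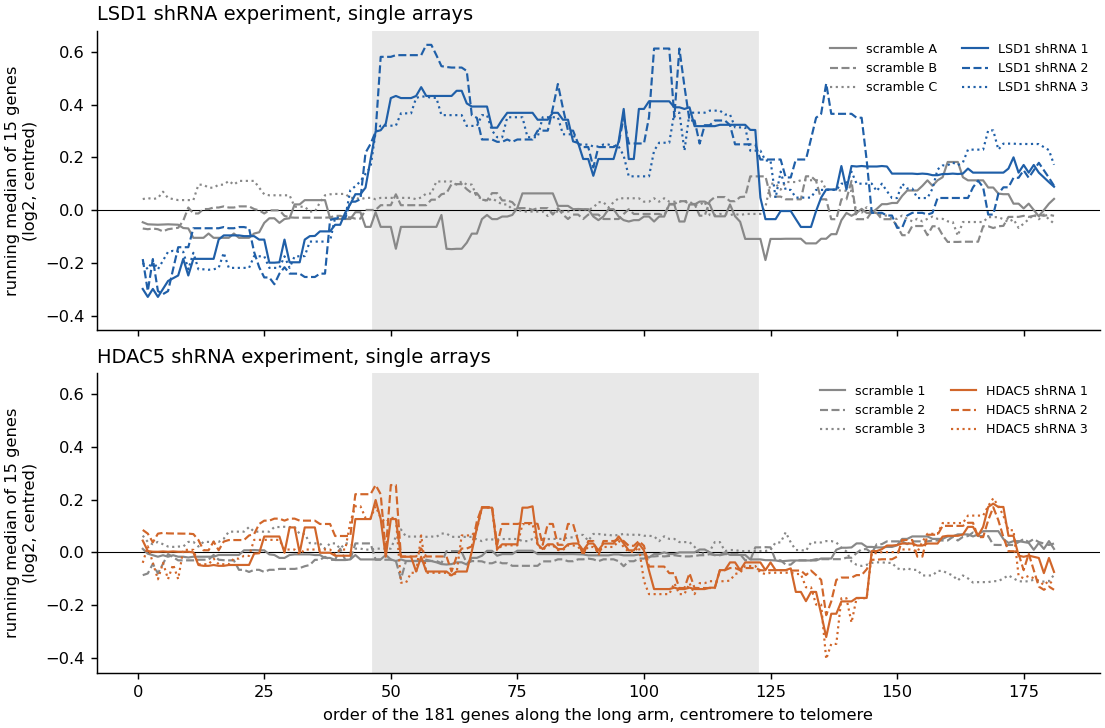
Running median of 15 genes (log2, y axis) on every single array, centred on the scramble means of its experiment, by order along the arm (x axis). All 3 LSD1 shRNA arrays (blue) leave the scramble arrays (grey) over the shaded stretch, where their medians are 0.37, 0.35 and 0.32, while the HDAC5 shRNA arrays (orange) do not.

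**Figure D3:**
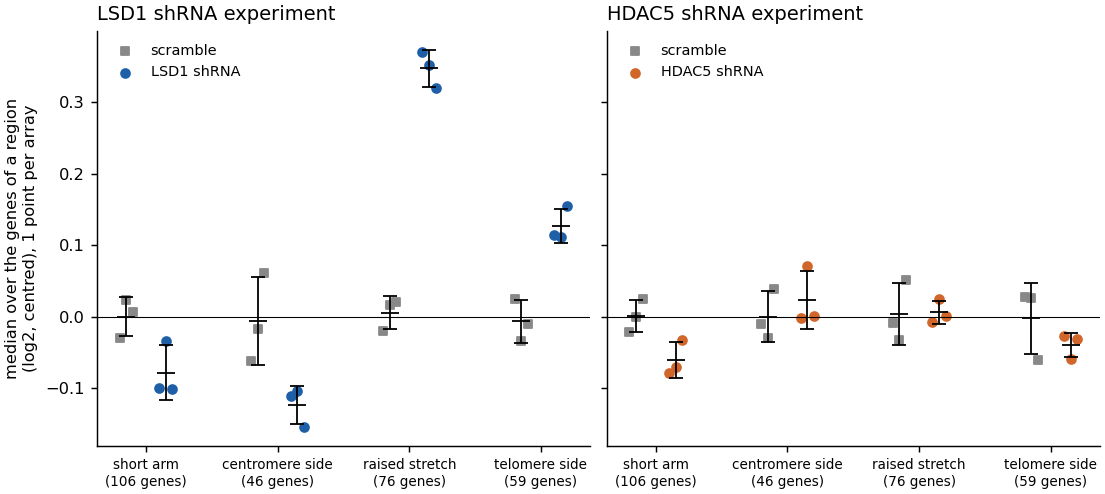
Median over the genes of the short arm and of the 3 regions of the long arm on each array (log2, centred, y axis). Points are arrays, and bars give the mean and SD over 3 arrays. The LSD1 shRNA arrays stand at 0.35 ± 0.03 in the raised stretch, which was placed by the same arrays.

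The ends of the stretch are blurred by 7 members on either side, which is the reach of the running median. The last 10 members before the start, TERF1 to HEY1, had a median of 0.03 and the first 10 inside, MRPS28 to CA1, a median of 0.34. The last 10 inside, CCN3 to ATAD2, had a median of 0.31 and the 10 beyond, NTAQ1 to CYRIB, a median of -0.02. The end genes themselves were near 0: MRPS28, a mitochondrial ribosome gene, had -0.10, its neighbour TPD52 -0.02, and ATAD2, a chromatin ATPase gene, 0.02. Outside the start, LY96 and HEY1 had 0.60 and 0.96, and outside the end NTAQ1 had 0.56. A division of the arm into 4 segments by least absolute deviation, which needs no window, put the raised part at LY96 to TBC1D31, with 80 members. It divided that part into LY96 to DECR1, at 0.45, and RBM12B to TBC1D31, at 0.32. Divided by position into 4 equal parts, the 76 members had a median above 0.3 in each part: 0.45 from MRPS28 to RBM12B, 0.32 from GEM to STK3, 0.38 from OSR2 to OXR1 and 0.32 from EIF3E to ATAD2.

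Most members of the stretch differed by a small amount. Of the 76, 41 lay between 0.2 and 0.6, 8 between 0.6 and 1, and 5 above 1, while 11 lay between 0 and 0.2, 8 between -0.2 and 0, and 3 below -0.2. The size went with the level: the 25 dimmest members had a median of 0.53, the 26 in the middle 0.40 and the 25 brightest 0.20. The 45 further probe sets of 30 of these genes, which were not used to place the stretch, had a median of 0.14, with 31 above 0. The 29 genes of the same span at or below the level limit had a median of 0.08, against 0.03 for all genes at or below the limit. Both medians are smaller than the 0.37 of the members.

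Among all genes, 2.93% were called higher and 2.00% lower with LSD1 shRNA (limma, Benjamini-Hochberg adjusted p under 0.05), and among those above the level limit 3.23% and 2.85%. Along the arm 25 of 181 members (13.8%) were called higher and 5 (2.76%) lower, and 22 of the 25 lay in the stretch. In the stretch 1 member, AZIN1, was called lower. All 3 LSD1 shRNA arrays lay above all 3 scramble arrays for 46 of the 76 members, or 60.5%, and below them for 4, where 14.3% and 12.7% of all genes, and 17.0% and 17.1% of those above the level limit, did so. On the centromere side 5 of 46 lay above and 18 below. The count of calls depended on single arrays: the 25 became 13 when scramble array A was omitted, 5 for B and 3 for C. Omitting LSD1 shRNA array 1 gave 3, array 2 gave 28 and array 3 gave 7. The 5 lower calls became 1 without any one of these arrays other than LSD1 shRNA array 2. The share of all genes called with an array left out is not given here. Of these 30 called members, RIMS2, SYBU, IMPA1 and AZIN1 were called with each of the 6 arrays left out, and the other 26 lost the call without at least 1 of them. RIMS2 and MATN2 are in these counts although they passed the level limit only through the LSD1 shRNA arrays, so their calls lend no support. The stretch was placed by the same differences, so the shares within it are a description.

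The largest differences of the arm were all in the stretch, and their genes have unlike functions. RIMS2, which encodes a scaffold protein of neurotransmitter release, had log2 values of 6.42, 6.18 and 6.18 on the scramble arrays (A, B, C in that order here and for the genes that follow) and of 9.25, 8.92 and 9.59 with LSD1 shRNA (1, 2, 3). It went from near the level limit to well above it, a difference of 2.99 (SE 0.18) or 7.94-fold, with no overlap. RIMS2, MATN2 and CA1 passed the level limit only through the LSD1 shRNA arrays: their mean over the arrays of the other 3 groups was at or below it. Their presence in the stretch thus depended on their own higher values, and no p is given for them. The other 73 members of the stretch had a median of 0.36.

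MATN2, which encodes the matrix protein matrilin 2, had 7.61, 7.09 and 6.26 on the scramble arrays and 9.69, 9.65 and 8.86 with LSD1 shRNA. The scramble arrays were widely spread, and the difference was 2.41 (SE 0.37). ENPP2 encodes autotaxin, the secreted enzyme that makes lysophosphatidic acid. Its values were 5.91, 7.37 and 6.68 on the scramble arrays and 8.45, 9.03 and 8.47 with LSD1 shRNA, a difference of 2.00 (SE 0.36, limma adjusted p = 0.031). It lost the call without any one array other than scramble array B. With HDAC5 shRNA, ENPP2 moved the opposite way, from 8.72, 8.47 and 8.36 to 7.30, 7.74 and 7.43 (difference -1.03, SE 0.12, limma adjusted p = 5.07e-05).

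SYBU encodes syntabulin, an adaptor between kinesin and vesicles. It stood at 7.19, 7.70 and 7.74 on the scramble arrays and at 9.11, 9.33 and 9.26 with LSD1 shRNA (difference 1.69, SE 0.16, limma adjusted p = 0.00394). The next in size did not pass the test. FABP4, a fatty acid carrier gene, had 5.91, 6.82 and 6.26 against 6.75, 8.76 and 6.69, so that its difference of 1.07 (limma adjusted p = 0.33) rested on LSD1 shRNA array 2. ZFPM2, a cofactor gene of GATA factors, had 6.15, 6.96 and 6.96 against 7.80, 7.76 and 7.44, which did not overlap but missed the threshold (difference 0.98, limma adjusted p = 0.0689).

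AZIN1 went against its surroundings. It encodes antizyme inhibitor 1, which protects ornithine decarboxylase and so polyamine synthesis. Its log2 values were 11.44, 11.43 and 11.41 on the scramble arrays and 10.75, 10.65 and 10.70 with LSD1 shRNA, a 1.66-fold fall (difference -0.73, SE 0.07, limma adjusted p = 0.00291). The neighbours in order, KLF10 and ATP6V1C1, had centred differences of 0.05 and 0.004. With the mean of all probe sets of the gene, AZIN1 had -0.35 and was no longer called. CCNE2, which encodes cyclin E2, a driver of entry into S phase, had the second lowest value of the stretch, -0.26, from 10.56, 10.60 and 10.70 against 11.01, 9.29 and 10.75. There LSD1 shRNA array 2 alone was low, and the difference was not called (limma adjusted p = 0.767).

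**Figure D4:**
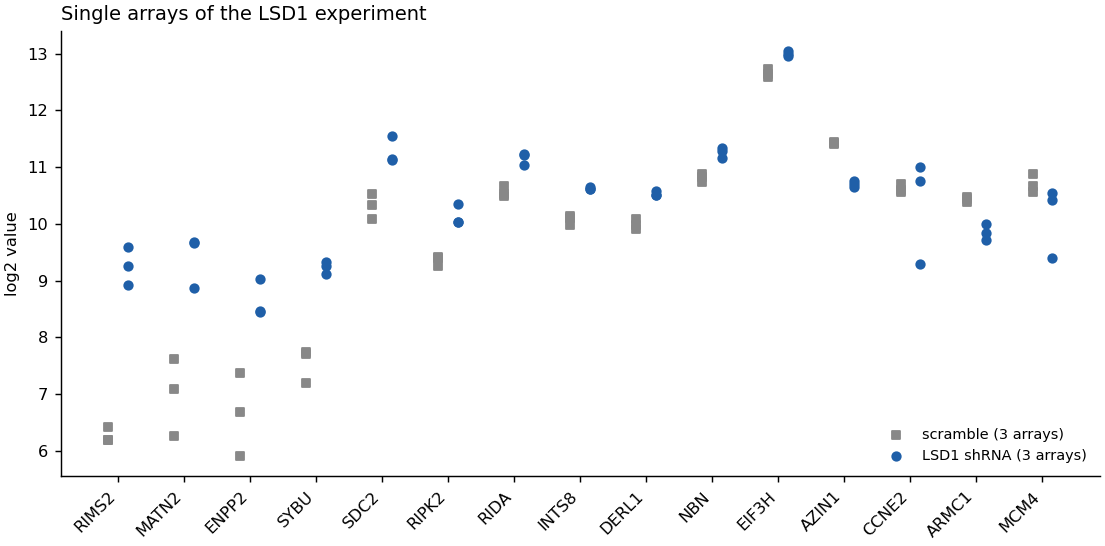
Log2 values of 15 named members on the 3 scramble arrays (grey squares) and the 3 LSD1 shRNA arrays (blue circles) of the LSD1 experiment. The blue points lie above the grey ones from RIMS2 to EIF3H and below them for AZIN1, ARMC1 and MCM4, and the groups overlap for CCNE2; levels of different genes come from different probe sets and are not comparable.

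By role, the stretch held members of 6 hand-made lists, and every list had a median above 0 there with LSD1 shRNA. The stretch was placed by these differences and 65 of its 76 members lay above 0, so the list medians restate that choice. Outside the stretch they ranged from -0.42 (DNA replication, repair and cohesion) to 0.21 (signalling, adhesion and matrix). In the stretch as a whole, 22 of 76 members (28.9%) were called higher, and the calls per list that follow are a description beside that share. The 13 genes of signalling, adhesion and matrix had a median of 0.49, with 4 called higher, MATN2 among them. SDC2, which encodes the heparan sulfate proteoglycan syndecan 2, had 10.53, 10.34 and 10.09 on the scramble arrays and 11.54, 11.14 and 11.12 with LSD1 shRNA. RIPK2, the kinase gene that acts below the NOD receptors of bacterial cell wall fragments, had 9.26, 9.40 and 9.42 against 10.03, 10.35 and 10.03. For both, all LSD1 shRNA arrays lay above the scramble arrays (differences 0.95 and 0.78, limma adjusted p = 0.0245 and 0.0194).

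The 11 genes of mitochondria and metabolism were all above 0, with a median of 0.39 and 3 called higher. IMPA1, an enzyme gene of inositol recycling, had 11.81, 11.87 and 11.89 against 12.52, 12.44 and 12.36 (difference 0.58, limma adjusted p = 0.00482). RIDA, which encodes a deaminase that clears reactive imines, had 10.67, 10.50 and 10.52 against 11.21, 11.04 and 11.23 (difference 0.59, limma adjusted p = 0.0184). Both were higher on all 3 LSD1 shRNA arrays. PTDSS1, a phosphatidylserine synthase gene, and DECR1, of unsaturated fatty acid oxidation, had differences of 0.44 and 0.43 that were not called.

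The 8 genes of membrane traffic and lysosome had a median of 0.39, and 4 were called higher. DERL1, of the degradation of misfolded proteins at the endoplasmic reticulum, had 9.91, 10.09 and 9.97 against 10.51, 10.51 and 10.59. EMC2, of the complex that inserts membrane proteins, had 10.39, 10.34 and 10.38 against 10.87, 11.11 and 10.73. The sorting nexin gene SNX16 had 6.85, 6.84 and 6.75 against 7.46, 7.46 and 7.23. In each of these 3 genes the groups did not overlap (differences 0.54, 0.54 and 0.57, limma adjusted p = 0.0199, 0.0417 and 0.0239).

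The 11 genes of transcription and chromatin had a median of 0.27, with 10 above 0. INTS8, a subunit of the Integrator complex, was the 1 called, at 9.99, 10.14 and 10.10 against 10.62, 10.62 and 10.64 (difference 0.55, limma adjusted p = 0.0169). E2F5, of the E2F family, had a difference of 0.52 that missed the threshold (limma adjusted p = 0.0604), though its arrays did not overlap. The 7 genes of ribosome and translation had the smallest median, 0.15, and 2 were called. EIF3H, an initiation factor subunit, had 12.74, 12.64 and 12.59 against 12.95, 12.99 and 13.04, and PABPC1, which binds the poly(A) tail, 13.86, 13.82 and 13.81 against 14.02, 13.99 and 14.07. Their differences were 0.34 and 0.20 (limma adjusted p = 0.0194 and 0.0238).

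The 5 genes of DNA replication, repair and cohesion had a median of 0.21. NBN, of the complex that senses DNA breaks, was called at 0.44 (limma adjusted p = 0.0285), from 10.82, 10.74 and 10.88 to 11.33, 11.16 and 11.28. DSCC1, of the loader that couples the replication clamp to cohesion, had 10.43, 10.36 and 10.35 against 10.94, 9.99 and 10.83. LSD1 shRNA array 2 was again the low one, and DSCC1 was called higher when that array was left out. Leaving this list out kept 71 members in the stretch, with a median of 0.38 and the same ends.

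**Figure D5:**
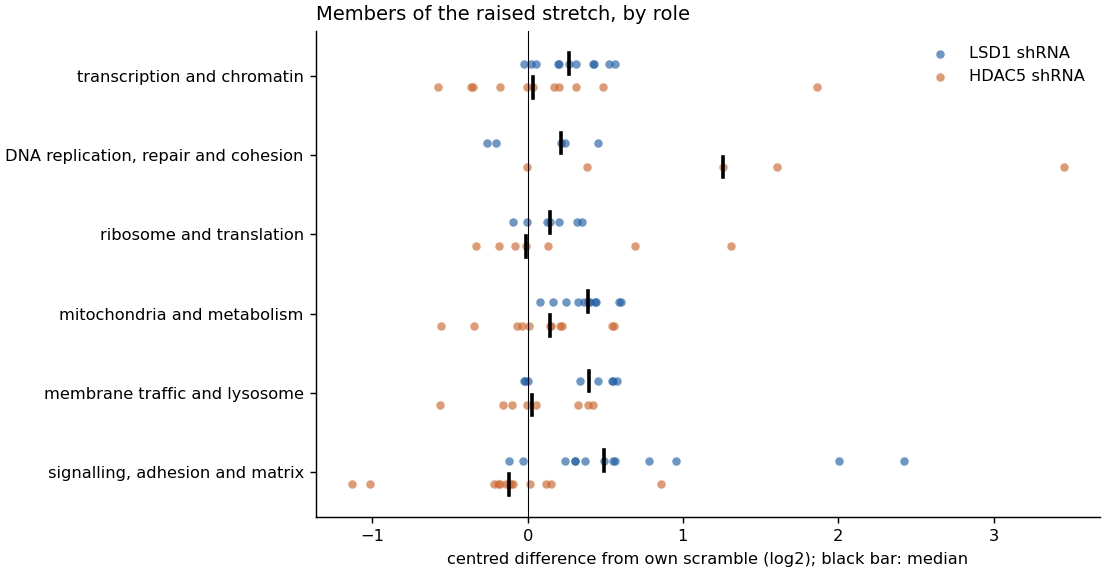
Centred difference from the own scramble arrays (log2, x axis) of the raised stretch's members in the 6 role lists (y axis), with LSD1 shRNA in blue and HDAC5 shRNA in orange; black bars are medians. The blue medians lie between 0.15 and 0.49, and the orange ones between -0.12 and 0.14, except for DNA replication, repair and cohesion at 1.26.

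Outside the stretch the LSD1 differences were smaller and, toward the centromere, mostly negative. On the centromere side 4 of 46 members (8.7%) were called lower, where 2.85% of genes above the level limit were. Named after their values were seen, they were PRKDC, a DNA repair kinase gene, UBE2V2, of ubiquitin chain formation, RAB2A, a GTPase gene of membrane traffic, and ARMC1. ARMC1 fell the most, from 10.48, 10.39 and 10.43 to 9.99, 9.72 and 9.84 (difference -0.58, SE 0.10, limma adjusted p = 0.0247). MCM4, a subunit of the replicative helicase, had 10.88, 10.57 and 10.66 against 10.43, 9.40 and 10.55, where array 2 was the lowest and the difference of -0.58 was not called (limma adjusted p = 0.319). RGS20, a regulator gene of G protein signalling, had a difference of -0.53 (limma adjusted p = 0.148).

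Within the lowered stretch from ASPH to ARFGEF1, 7 of 11 members lay below 0. CSPP1 and PTTG3P, a pseudogene, had -0.47 and -0.31, COPS5, of the COP9 signalosome, -0.27, YTHDF3, a reader of methylated RNA, -0.23, and RRS1, of ribosome assembly, -0.21. None of these 5 was called. The end genes ASPH and ARFGEF1 had 0.07 and -0.14, and GGH and MYBL1 had 0.15 and 0.11, against the direction of their neighbours. The signal of PTTG3P can come from the related genes of its family. Under 9 of 16 other settings no lowered run touched these members, among them a running median of 9 members and the omission of scramble array A or C or of LSD1 shRNA array 2.

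On the telomere side, 3 of 59 members (5.08%) were called higher, where 3.23% of genes above the level limit were. Again named after their values were seen, they were LY6E, a membrane protein gene, DGAT1, of triglyceride synthesis, and SLC39A4, a zinc importer gene. Their differences were 0.71, 0.62 and 0.58. With each of 6 arrays left out in turn, LY6E kept the call 2 times and DGAT1 and SLC39A4 1 time each. MYC, 9 members beyond the end of the raised stretch, had 9.58, 9.53 and 10.26 on the scramble arrays and 8.93, 9.0 and 9.46 with LSD1 shRNA. Its 3 LSD1 shRNA arrays lay below the scramble arrays, with a difference of -0.66 that was not called (limma adjusted p = 0.169). With HDAC5 shRNA, MYC fell from 10.13, 10.25 and 10.20 to 9.42, 9.41 and 9.50 (difference -0.75, SE 0.05, limma adjusted p = 8.9e-07).

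With HDAC5 shRNA, many members changed, but in both directions and without a common stretch. Among all genes 21.3% were called higher and 23.2% lower (30.3% and 30.7% of those above the level limit), and along the arm 55 of 181 members (30.4%) were called higher and 57 (31.5%) lower. In the 76 members of the raised stretch 28 were called higher and 25 lower. Running medians of at least 0.2 were found at 1 member with HDAC5 shRNA, where 2.72% of all placed genes had one, and at 85 members with LSD1 shRNA, where 11.4% had one.

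CCNE2, ATAD2, MCM4, DSCC1 and POP1 had the largest increases with HDAC5 shRNA. CCNE2 had 7.19, 6.42 and 6.71 on the scramble arrays and 10.18, 10.33 and 10.14 with HDAC5 shRNA, a 10.9-fold rise (difference 3.44, SE 0.15, limma adjusted p = 8.55e-08). ATAD2 had 8.44, 8.20 and 8.48 against 10.21, 10.24 and 10.23, MCM4 8.67, 8.55 and 8.72 against 10.33, 10.43 and 10.35, and DSCC1 8.56, 8.43 and 8.57 against 10.14, 10.03 and 10.17. None of these groups overlapped, with differences of 1.85, 1.73 and 1.60 (limma adjusted p = 3.23e-08, 1.33e-08 and 2.42e-08). POP1, of the enzymes that process transfer and ribosomal RNA, rose by 1.30. With the overall shift between the experiments removed, the LSD1 scramble arrays lay above the HDAC5 scramble arrays at all these genes. The gap was 3.46 for CCNE2, 1.41 for ATAD2, 1.67 for MCM4, 1.48 for DSCC1 and 0.92 for POP1. The mean of CCNE2 was 10.22 with HDAC5 shRNA and 10.62 on the LSD1 scramble arrays, whose array medians were higher. The part of the scramble level in these rises was not tested. Of the 9 members in the list of DNA replication, repair and cohesion, 7 were called higher and 0 lower, with a median of 1.18. Among genes above the level limit 30.3% were called higher. The list was made with earlier results of these data known, so its count is a description.

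The largest falls with HDAC5 shRNA lay on both sides of the start of the LSD1 stretch and within it. LY96, the coreceptor gene of Toll-like receptor 4, had 9.31, 9.38 and 9.25 against 7.58, 7.89 and 7.94 (difference -1.51, SE 0.09, limma adjusted p = 5.02e-07). HEY1, a repressor gene induced by Notch, had 9.34, 9.51 and 9.27 against 8.08, 8.11 and 8.32, and DEPTOR, which encodes an inhibitor of mTOR, 7.80, 7.91 and 7.79 against 6.61, 6.77 and 6.69. Their differences were -1.20 and -1.14 (limma adjusted p = 1.21e-06 and 4.73e-07). ESRP1, an epithelial splicing factor gene, had 6.57, 6.90 and 6.80 against 5.35, 5.64 and 5.73 and thus ended below the level limit. It had passed that limit only through the HDAC5 scramble arrays. With the overall shift between the experiments removed, the LSD1 scramble arrays lay below the HDAC5 scramble arrays at these genes. The differences were -0.92 for LY96, -2.10 for HEY1, -1.18 for DEPTOR and -1.29 for ESRP1. LY96, HEY1 and DEPTOR were above their scramble arrays on every LSD1 shRNA array, with differences of 0.59, 0.95 and 0.56 that were not called.

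The effect of HDAC5 shRNA minus that of LSD1 shRNA was called lower for 39 and higher for 11 of the 76 members of the stretch, where 16.1% and 15.7% of all genes, and 20.0% and 22.5% of those above the level limit, were called. On the centromere side the counts were 6 lower and 15 higher of 46, and on the telomere side 15 and 2 of 59. The stretch was placed by a high LSD1 shRNA difference, which by itself lowers this contrast within it, so its counts are a description. The scramble sets differed along the arm too. With the overall shift of 0.38 between the experiments removed, the scramble arrays of the LSD1 experiment minus those of the HDAC5 experiment had a median of -0.23 in the stretch, -0.03 on the centromere side and -0.12 on the telomere side. That comparison shares the LSD1 scramble arrays with the LSD1 shRNA comparison and sets side by side experiments with different array medians. Its part in the stretch was not tested.

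The same rule applied to all chromosomes with LSD1 shRNA found 27 raised stretches with 721 genes and 26 lowered ones, against 5 and 2 with HDAC5 shRNA. The stretch on the long arm of chromosome 8 was the second longest by genes, after one of 95 genes on chromosome 9. The arm had a median of 0.15 over its 181 members. Chromosome 8 as a whole, with the short arm, had a median of 0.04 over 287 genes. That was below chromosome 9 at 0.10, chromosomes 20, 6 and 7 at 0.09, and chromosomes 12 and X at 0.06. Chromosome 4 was lowest at -0.31. Other chromosomes were not divided into arms. A stretch of this kind was thus not particular to chromosome 8.

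Near the level limit, the 5 dimmest members were KCNQ3 and ESRP1 at 6.01, CA1 at 6.06, CYP11B2 at 6.28 and ZNF250 at 6.51. The 5 genes just below it were ADGRB1 at 5.96, PDP1 at 5.95, BTF3P12 at 5.94, HAS2 at 5.86 and NIPAL2 at 5.84.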

How the data were processed

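The deposited values are log2 probe set levels on Affymetrix 3′ expression arrays, 1 per sample. Per the submitters' processing notes the authors used RMA and affy. Versions, the genome build and whether the 12 arrays went through RMA at once are not given in these sources. RMA equalises the arrays it is given, which removes a change shared by most genes.

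Of 22277 probe sets, 62 are controls, 19064 have 1 gene symbol, 1043 several and 2108 none. Symbols were updated by gene ID to RefSeq names (GRCh38.p14; 19052 matched, 12 not), and that table gave the order of genes and distances between starts. Where a gene had several probe sets, the brightest by mean over all 12 arrays stood for it. Those ending in _x_at or _s_at (79 of 181 members) can match related genes.

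Each shRNA was compared with its own scramble set in limma (version 3.58.1, R 4.3.3; lmFit and eBayes with a trend) over 11963 genes, and the effects with each other in a fit of all 12 arrays. SEs are limma's and SDs are over 3 arrays. The steps were tested on simulated data. The number of arrays limits the precision. The untagged scramble set was assigned to HDAC5 because the other carries the LSD1 tag. Same-numbered deviations in the HDAC5 experiment correlated at -0.10, -0.34 and -0.27, and different-numbered ones at 0.02 to 0.31. Replicate numbers were therefore not taken to pair the samples. Whether the samples pair in another order was not tested.

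Named were the ends of each stretch, its 6 largest differences and 2 against it, the 5 largest rises and falls per shRNA, up to 4 per role list and the genes around the level limit. Members and lists were chosen with earlier results of these data known. Alternatives covered the probe set choice, level limit, window, threshold, normalization, fit, replicate block and each array left out.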

Additional observations from a re-analysis of the deposited data

Results flagged for a closer look

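The effects of the shRNAs differed by the contrast in the fit of all 12 arrays (limma, adjusted p under 0.05). HDAC5 effect minus LSD1 effect was called higher for 11 and lower for 39 of the 76 members of the raised stretch. On the centromere side it was called higher for 15 and lower for 6 of 46, and on the telomere side for 2 and 15 of 59. Of all genes 15.7% were called higher and 16.1% lower, and of those above the level limit 22.5% and 20.0%. Among named members the contrast was negative for ENPP2 (-3.02), RIMS2 (-2.87), MATN2 (-2.28), HEY1 (-2.15), LY96 (-2.10), SYBU (-1.93), FABP4 (-1.81), DEPTOR (-1.70) and ESRP1 (-1.22). It was positive for CCNE2 (3.71), MCM4 (2.30), ATAD2 (1.84), DSCC1 (1.39), POP1 (1.31), ARMC1 (1.16) and AZIN1 (0.94). RIMS2 and MATN2 passed the level limit only through the LSD1 shRNA arrays, and ESRP1 only through the HDAC5 scramble arrays. The arm was chosen on the same arrays and the stretch was placed by the LSD1 shRNA difference, so these contrasts are a description.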

How the results depend on the processing

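The raised stretch with LSD1 shRNA was found under every alternative run, with 61 to 110 members in raised stretches where the window, threshold, level limit or normalization was changed, 71 where a gene's probe sets were averaged and 72 to 87 with 1 array left out. It was broken into at most 3 runs, and some settings added runs on the telomere side, which these counts include. Its median was 0.33 with the mean of probe sets, 0.43 over the 42 of the 76 members whose probe set does not end in _x_at or _s_at (chosen after seeing the data; the rule run without such probe sets gave 57 members, PKIA to PTP4A3), and 0.33 to 0.39 with 1 array left out. The segment fit was also chosen after seeing the data. No setting gave a raised stretch with HDAC5 shRNA, and the same 76 members had a median of -0.0295 there with the mean of probe sets. Under 9 of 16 settings no lowered run touched ASPH to ARFGEF1. Members called with LSD1 shRNA numbered 57 higher and 17 lower in 1 fit of all 12 arrays, 3 lower with the mean of probe sets, and 3 to 28 higher and 1 to 5 lower with 1 array left out. HDAC5 shRNA had 31 called lower in 1 fit of 12. Between the scramble sets, 99 of 181 members were called higher in the LSD1 experiment and 31 lower. Of the 7996 genes above the level limit, 5036 and 1015 were, with the overall shift left in. Quantile normalization turned the 99 and 31 into 47 and 77. With the replicate block, 50 and 53 members were called with HDAC5 shRNA in place of 55 and 57. The share of all genes called under these other settings is not given. Their counts therefore do not show whether the arm or all genes changed. In the LSD1 experiment no paired analysis was possible because the groups share no replicate numbers. Of the settings run on 48 named genes, 800 results kept their side of the threshold, 94 lost the call, 18 gained it and 0 reversed. Groups of 3 arrays limit calls of small differences.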
